A study of Homo sapiens with 3 samples.

Results

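DNA replication machinery and nucleotide supply were followed through 44 genes, taken by name from a list, out of 33423 genes found in 3 Drop-seq count files. They were read in 7 steps: 5 licensing factors, 12 helicase genes, 9 polymerase and primase genes, 6 clamp and clamp loader genes, 5 genes of single-strand binding and Okazaki fragment maturation, 3 fork factors and 4 genes of nucleotide supply. The libraries came from the prostate cancer cell lines LNCaP and VCaP, both of which express the androgen receptor. LNCaP–ENZ168 held LNCaP cells kept for 168 h in 10 µM enzalutamide, a drug that blocks the androgen receptor, VCaP–ENZ48 held VCaP cells after 48 h at that dose, and VCaP parental held VCaP cells given 0.1% DMSO, the vehicle, over the same 48 h. Each group was 1 library, so there is no replicate check and no test was made, and every interval covers counting error only. No LNCaP library without drug was analysed here, and in LNCaP–ENZ168 the line and the time in drug differ together from both VCaP libraries.

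Before a cell copies its DNA, the origin recognition complex, CDC6 and CDT1 load the MCM helicase onto origins, and CDC45 and the GINS complex switch it on when S phase starts. Primase and DNA polymerase alpha then lay primers, RFC loads the PCNA ring that holds polymerase delta on the strand, RPA covers single strands, and FEN1 and LIG1 finish the lagging strand. Ribonucleotide reductase, thymidylate synthase and thymidine kinase make the deoxynucleotides, and E2F transcription factors are known to switch on many of these genes as cells enter S phase.

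In Drop-seq, each mRNA molecule caught on a barcoded bead carries a unique molecular identifier (UMI), and levels are given as CPM, the UMIs of a gene summed over cells and scaled to a common library total. Of 1000 barcodes in each file, 944 were kept as cells in LNCaP–ENZ168, 997 in VCaP parental and 947 in VCaP–ENZ48, with 6313283, 19515202 and 14301287 UMIs, and the median cell held 5389, 17817 and 11224 UMIs. Barcodes ending in N instead of a base made up 21.2% of barcodes in LNCaP–ENZ168, 86% in VCaP parental and 86.9% in VCaP–ENZ48. All 8 prostate epithelial markers were detected in each library, and ERG, which the TMPRSS2 fusion drives in VCaP, had 0 UMIs in LNCaP–ENZ168 against 2052 and 816 in VCaP parental and VCaP–ENZ48. In the order of the cell counts, the 5 fibroblast markers summed to 2.06, 21.6 and 26.6 CPM. LUM gave 409 of these 421 UMIs in VCaP parental and 361 of 381 in VCaP–ENZ48, while COL1A2 had 0 UMIs in each library and DCN at most 4. The 5 leukocyte markers summed to 0.158, 1.90 and 2.38 CPM, with 0 or 1 UMI of PTPRC in each library. Each pair of libraries shared 1 cell barcode.

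The promoters of these genes were read first, because E2F sites are a feature many of them are known to share. RefSeq promoters (GRCh38.p14, 250 bases before to 50 after a start) were at hand for 38 of the 44 genes. A match to TTTCCCGC, TTTCGCGC, TTTGCCGC or TTTGGCGC on either strand was found in 19 of the 38 genes (50%), against 5.40% of 15843 protein-coding genes and 3.99% of all 27305 genes with a listed promoter. CCAAT, on either strand, was found in 63.2% of the 38 genes and in 42.1% of protein-coding genes. A gene counted when any of its listed starts matched, and overlapping matches on the 2 strands counted separately. The 100 bases before the start are shown for 4 genes, with E2F-type matches in capitals. From the helicase step these are MCM6, a subunit of the helicase ring (chr2:135876444-135876543, minus strand), and GINS2, a subunit of the complex that activates it (chr16:85688955-85689054, minus strand). The others are PCNA, the sliding clamp (chr20:5126623-5126722, minus strand), and TYMS, thymidylate synthase of nucleotide supply (chr18:657553-657652, plus strand).
MCM6: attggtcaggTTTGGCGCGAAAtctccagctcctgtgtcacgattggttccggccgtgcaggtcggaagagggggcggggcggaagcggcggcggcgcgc
GINS2: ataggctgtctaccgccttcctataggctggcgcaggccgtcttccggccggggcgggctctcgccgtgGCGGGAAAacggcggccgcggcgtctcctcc
PCNA: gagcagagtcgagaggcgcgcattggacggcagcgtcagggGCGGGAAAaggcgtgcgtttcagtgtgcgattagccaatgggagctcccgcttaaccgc
TYMS: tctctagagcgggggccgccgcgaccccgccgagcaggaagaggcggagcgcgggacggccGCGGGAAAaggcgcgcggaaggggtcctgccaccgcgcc
The capitals in MCM6 hold a match on each strand, which overlap, and GINS2, PCNA and TYMS hold 1 match each in these bases, read on the other strand. A match is a stretch of letters and not a measured binding site, and genes without one may hold other forms of the site.

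VCaP–ENZ48 was compared with VCaP parental to ask how replication genes stood after a short exposure to the drug. All 44 genes were lower in VCaP–ENZ48, and in all 44 the interval of the ratio lay below 0. Among the 7729 genes that reached the expression minimum given below, 54.8% were lower too. How many of those 7729 had an interval below 0 was not counted, so the intervals alone do not set the 44 apart. The summed level of the 44 genes was 3525 CPM (95% interval 3499 to 3552) in VCaP parental and 1171 CPM (1153 to 1189) in VCaP–ENZ48. This is a log2 ratio of -1.59 (-1.61 to -1.57). Per gene, ratios are log2 ratios of CPM + 1 with the exact conditional 95% interval of the counts, which leaves out the added 1 and so can reach further from 0. Of the 44, 36 had a mean of at least 10 CPM over the pair, and their median ratio was -1.84, against -0.066 for the 7729 genes at that level.

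At least 2-fold lower were 31 of the 36, where 6.77% of all genes were, and at least 4-fold lower were 17, where 2.43% were. None was higher. A gene can pass a mean of 10 CPM through its parental level alone, so 2 other minimums are given. With all 44 genes, at a minimum of 1 CPM, 35 were at least 2-fold lower against 4.63% of all genes, and among the 29 genes at 10 CPM or more in both libraries 24 were, against 5.29%. Barcodes ending in N and depth changed these counts little. Of 36 genes, 32 were 2-fold lower without such barcodes, against 7.33% of all genes, and 30 with only such barcodes, against 6.80%. In cells of 5000 to 20000 UMIs 31 were, against 7.24%. With TMM scaling the median of all genes moved to -0.34, with median-of-ratios scaling to -0.28 and without mitochondrial and ribosomal protein genes to 0.086, while the median of the genes relative to it stayed between -1.81 and -1.79, so steps are given relative to the median of all genes.

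**Figure D1:**
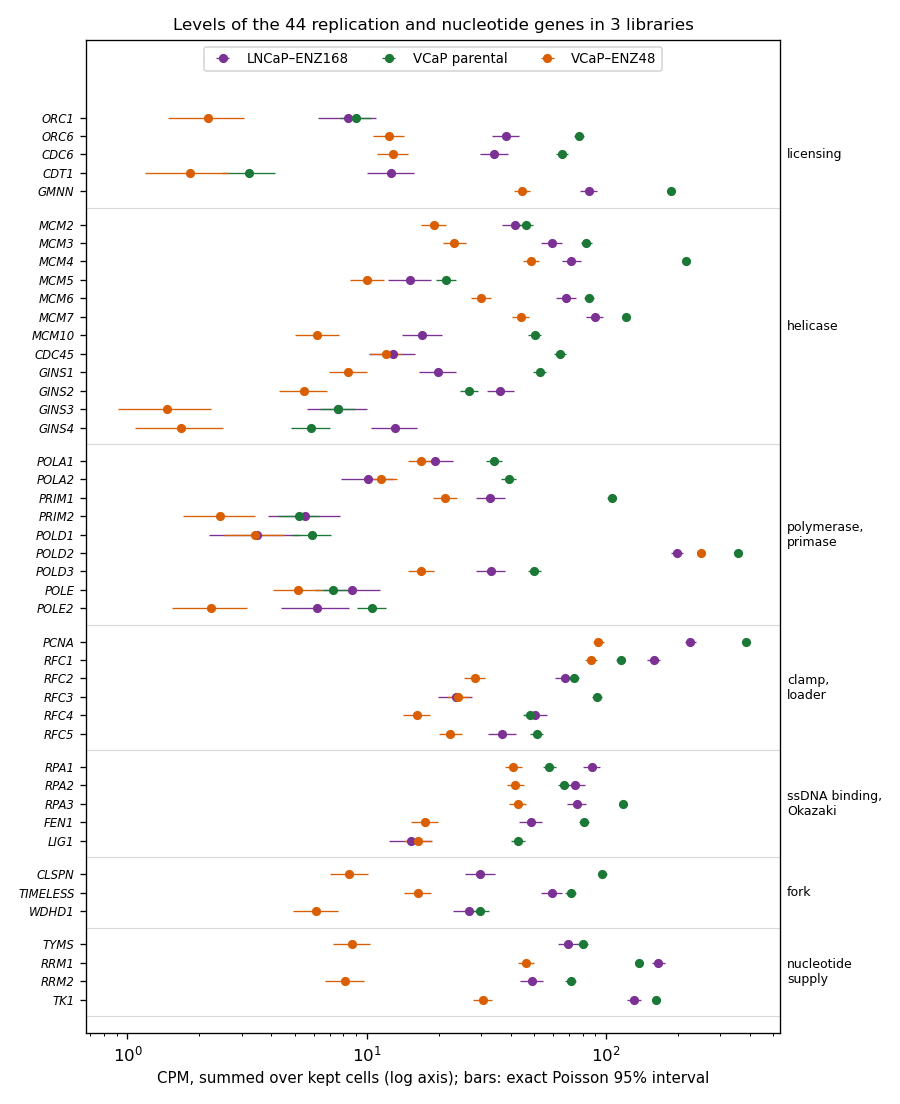
Level of each of the 44 genes in CPM on a log axis in LNCaP–ENZ168 (purple), VCaP parental (green) and VCaP–ENZ48 (orange), with exact Poisson 95% intervals, grouped by step. VCaP–ENZ48 was the lowest of the 3 libraries for 40 genes, and VCaP parental the highest for 33.

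Licensing factors stood at a relative median of -2.20, from 3 of 5 genes at the expression minimum, and at -2.83 in cells of 5000 to 20000 UMIs. ORC6, a subunit of the origin recognition complex, was at 38.2 CPM in LNCaP–ENZ168, 77.3 CPM in VCaP parental and 12.4 CPM in VCaP–ENZ48, and the ratio of the VCaP pair was -2.55 (-2.88 to -2.42), the lowest of the step. GMNN, the geminin that blocks reloading of origins by holding CDT1, was at 84.7, 188 and 44.5 CPM in the same order and had a ratio of -2.06 (-2.20 to -1.96). CDC6, which loads the helicase with CDT1, had a ratio of -2.27 (-2.58 to -2.13). The inhibitor and the loader were thus both more than 4-fold lower. ORC1 (31 UMIs in VCaP–ENZ48) and CDT1 (26 UMIs) lay under the minimum, with ratios of -1.66 (-2.66 to -1.50) and -0.59 (-1.55 to -0.15). CDT1 was the only licensing factor that was higher in LNCaP–ENZ168, at 12.7 CPM, than in VCaP parental, at 3.23 CPM.

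Helicase genes had a relative median of -1.88, and all 10 that reached the minimum were at least 2-fold lower. MCM4 was at 71.7 CPM in LNCaP–ENZ168, 217 CPM in VCaP parental and 48.6 CPM in VCaP–ENZ48, a ratio of -2.14 (-2.28 to -2.04). MCM7 was at 89.8, 122 and 44.1 CPM, a ratio of -1.45 (-1.60 to -1.34). MCM5 was at 15.2, 21.6 and 10.1 CPM, a ratio of -1.03 (-1.38 to -0.82), and was the ring subunit with the smallest difference. It stayed short of 2-fold at -0.97 with only barcodes ending in N, -0.89 with cells weighted equally, -0.92 without mitochondrial and ribosomal protein genes and -0.82 with 5 CPM added. The 6 subunits of the ring, MCM2 to MCM7, thus ranged from -2.14 to -1.03 around a median of -1.46, although they work as 1 complex.

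Among the genes that activate the ring, some stood below all of its subunits and others within their range. MCM10, an activation factor, was at 17.1 CPM (95% interval 14.0 to 20.7) in LNCaP–ENZ168, 50.5 CPM (47.4 to 53.7) in VCaP parental and 6.22 CPM (5.00 to 7.66) in VCaP–ENZ48, and its ratio of -2.83 (-3.35 to -2.71) was the lowest of the step. CDC45, which joins the ring to form the active helicase, had a ratio of -2.33 (-2.66 to -2.19). GINS1 and GINS2, which complete it, had ratios of -2.52 (-2.94 to -2.38) and -2.11 (-2.66 to -1.95). The intervals of MCM10 and GINS1 lay below those of all 6 ring subunits, and that of CDC45 below all but MCM4. The interval of GINS2 overlapped those of MCM4 and MCM3. GINS3 and GINS4 had 21 and 24 UMIs in VCaP–ENZ48 and ratios of -1.80 and -1.35, under the minimum and within the range of the ring. MCM10, GINS1 and GINS2 were under 10 CPM in VCaP–ENZ48 and reached the minimum through their parental level.

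Polymerase and primase genes had a relative median of -1.45, and 3 of the 5 at the minimum were at least 2-fold lower. POLD2, a subunit of polymerase delta, was at 198 CPM in LNCaP–ENZ168, 358 CPM in VCaP parental and 251 CPM in VCaP–ENZ48, a ratio of -0.51 (-0.57 to -0.45). PRIM1, the catalytic subunit of primase, was at 33.0, 106 and 21.3 CPM, a ratio of -2.26 (-2.49 to -2.14). The intervals of these genes were far apart. POLA1 and POLA2, the catalytic subunit and its partner in polymerase alpha, had ratios of -0.97 (-1.23 to -0.79) and -1.69 (-2.03 to -1.53), and POLD3 one of -1.52 (-1.78 to -1.37). PRIM2, POLD1, POLE and POLE2 were under the minimum, at 32 to 74 UMIs in VCaP–ENZ48 and ratios from -1.83 for POLE2 to -0.41 for POLE.

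The clamp and its loader had a relative median of -1.36. PCNA was at 225 CPM (214 to 237) in LNCaP–ENZ168, 386 CPM (377 to 395) in VCaP parental and 93.1 CPM (88.1 to 98.2) in VCaP–ENZ48, a ratio of -2.04 (-2.14 to -1.97). RFC1, the large subunit of the loader, was at 159, 115 and 87.0 CPM, and its ratio of -0.40 (-0.51 to -0.31) was the closest to 0 of the 36 genes. RFC2 to RFC5, the small subunits, had ratios from -1.89 (-2.10 to -1.76) for RFC3 to -1.17 (-1.39 to -1.02) for RFC5. The large and the small subunits of 1 complex therefore differed beyond counting error, with RFC1 above the interval of every small subunit.

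Genes of single-strand binding and Okazaki fragment maturation had a relative median of -1.27, and of -0.82 at a mean of 50 CPM, and 3 of 5 were at least 2-fold lower. RPA3, the smallest RPA subunit, was at 75.6 CPM in LNCaP–ENZ168, 118 CPM in VCaP parental and 42.9 CPM in VCaP–ENZ48, a ratio of -1.44 (-1.59 to -1.33). RPA1, the largest subunit, was at 87.3, 58.2 and 41.1 CPM, a ratio of -0.49 (-0.65 to -0.36). FEN1, the nuclease that removes flaps from Okazaki fragments, was at 48.5, 81.1 and 17.5 CPM, a ratio of -2.15 (-2.41 to -2.02). RPA2, at -0.66 (-0.82 to -0.53), lay near RPA1, and LIG1, which seals the nicks, was at -1.34 (-1.61 to -1.18). Here too the subunits of 1 complex, RPA, did not share 1 ratio.

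Fork factors had a relative median of -2.04, and all 3 were at least 4-fold lower. CLSPN encodes claspin, which passes the checkpoint signal of a stalled fork (GRCh38 chromosome 1, 35720218 to 35769978, minus strand). It was at 29.8 CPM (25.7 to 34.4, 188 UMIs) in LNCaP–ENZ168, 96.7 CPM (92.4 to 101, 1887 UMIs) in VCaP parental and 8.46 CPM (7.02 to 10.1, 121 UMIs) in VCaP–ENZ48. Its ratio of -3.37 (-3.79 to -3.25), 10.3-fold, was the lowest of the 44 genes. TIMELESS, a partner of claspin at the fork, was at 59.4, 71.5 and 16.4 CPM, a ratio of -2.06 (-2.33 to -1.92), and WDHD1, which ties polymerase alpha to the helicase, was at 26.8, 29.8 and 6.15 CPM, a ratio of -2.11 (-2.62 to -1.95).

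Nucleotide supply had a relative median of -2.62, the lowest of the 7 steps at a mean of 10 CPM. TYMS, the enzyme that makes thymidylate (chromosome 18, 657653 to 673578, plus strand), was at 69.5 CPM (63.2 to 76.4) in LNCaP–ENZ168, 79.9 CPM (76.0 to 84.0) in VCaP parental and 8.67 CPM (7.21 to 10.3) in VCaP–ENZ48, a ratio of -3.07 (-3.48 to -2.94). RRM2, the regulated subunit of ribonucleotide reductase, was at 48.9, 71.5 and 8.11 CPM, a ratio of -2.99 (-3.43 to -2.87), 7.96-fold. RRM1, its large subunit, was at 166, 137 and 46.6 CPM, a ratio of -1.54 (-1.68 to -1.44). The 2 subunits of the reductase thus differed, with the ratio of RRM2 the lower. TK1, which salvages thymidine, was at 131, 163 and 30.6 CPM, a ratio of -2.37 (-2.56 to -2.27). With genes at 10 CPM or more in both libraries only RRM1 and TK1 were left, and the relative median of -1.87 was no longer the lowest, with licensing factors at -2.18 and fork factors at -1.97. At a mean of 50 CPM nucleotide supply was at -1.72, licensing factors at -1.82 and fork factors, with CLSPN alone left, at -3.14. TYMS and RRM2, which are under 10 CPM in VCaP–ENZ48, thus set the rank of this step.

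**Figure D2:**
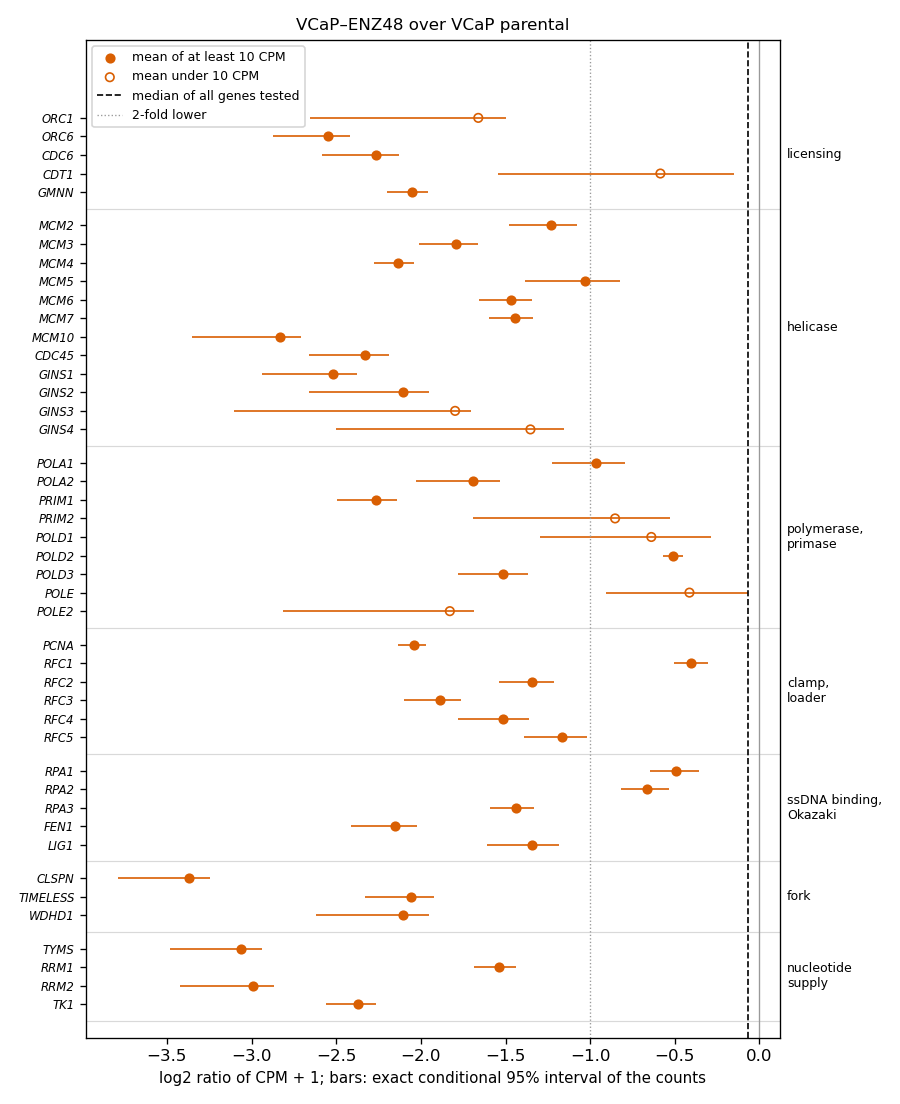
Log2 ratio of CPM + 1, VCaP–ENZ48 over VCaP parental, for each gene, with the exact conditional 95% interval as a bar, filled points for genes that average 10 CPM or more and open points for those under it. Every point lies below the dashed median of all genes (-0.066), from CLSPN at -3.37 to RFC1 at -0.40.

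Genes with and without an E2F-type match in the promoter did not separate by ratio. The 15 expressed genes with a match had a median of -1.89 and ranged from -3.37 to -0.97, and the 16 without one had a median of -2.08 and ranged from -2.99 to -0.40. RFC1, RPA1 and POLD2, whose ratios were the closest to 0 of the expressed genes, held no match, but neither did RRM2, at -2.99. POLE and CDT1, under the minimum, held a match at ratios of -0.41 and -0.59.

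LNCaP–ENZ168 was set beside VCaP–ENZ48 to compare cells in drug, with the line and the time both different. VCaP–ENZ48 stands in this comparison and in the one above, so the ratios are not independent of each other. The summed level of the 44 genes was 2345 CPM (95% interval 2307 to 2383) in LNCaP–ENZ168, a log2 ratio of 1.00 (0.97 to 1.03) over VCaP–ENZ48. At least 2-fold higher were 21 of the 36 genes at a mean of 10 CPM or more, where 35.5% of 8854 genes were. None was at least 2-fold lower, where 11.1% of all genes were. The median ratio was 1.11, and 0.46 relative to the median of all genes of 0.65. With TMM or median-of-ratios scaling 34 genes reached the minimum and 10 of them were 2-fold higher in each case, against 17.3% and 18.2% of all genes, so the share of all genes that were higher depended on scaling.

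Nucleotide supply and fork factors had the highest relative medians, 1.61 and 1.14, and all 7 genes were at least 2-fold higher in LNCaP–ENZ168. The median of nucleotide supply was 1.11 without barcodes ending in N, 2.26 with only such barcodes and 2.17 in cells of 5000 to 20000 UMIs. In those cells licensing factors, at 1.39, were level with fork factors. TYMS had the highest ratio, 2.87 (2.71 to 3.30), followed by GINS2 at 2.53 (2.36 to 3.12) and RRM2 at 2.45 (2.28 to 2.91). TK1 was at 2.07 (1.94 to 2.28), RRM1 at 1.81 (1.69 to 1.98), WDHD1 at 1.96, TIMELESS at 1.79 and CLSPN at 1.70. Licensing factors, helicase, clamp and loader, and single-strand binding and Okazaki maturation had relative medians of 0.69, 0.46, 0.39 and 0.17. These moved with the settings, licensing from 0.35 to 1.39 and helicase from 0.22 to 0.83.

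Polymerase and primase genes had a relative median of -0.47, although this step was at 0.11 when genes down to 1 CPM were taken. Their median ratio itself was 0.18, and their summed log2 ratio was -0.06 (-0.13 to 0.02). Of the 5 genes at the minimum, 2 were below 0. POLD3 and PRIM1 were higher in LNCaP–ENZ168, with ratios of 0.93 (0.69 to 1.24) and 0.61 (0.37 to 0.89). POLD2 had a ratio of -0.34 (-0.43 to -0.25) and was lower in LNCaP–ENZ168 than in either VCaP library beyond counting error. POLA2, LIG1 and RFC3 had ratios of -0.16, -0.09 and -0.03 with intervals that included 0. CDC45, at 12.8 CPM in LNCaP–ENZ168 and 12.0 CPM in VCaP–ENZ48, had a ratio of 0.09 (-0.31 to 0.48), while its partner GINS2 was 5.78-fold higher. POLA1, POLA2, LIG1, RFC3 and CDC45 changed sign in some of the other settings.

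Against VCaP parental, LNCaP–ENZ168 had a summed log2 ratio of -0.59 (-0.61 to -0.56). The median of 36 genes was -0.56 where that of all genes was 0.57, and 10 were at least 2-fold lower, where 10.8% of 8526 genes were, and 0 at least 2-fold higher, where 33.6% were. In CPM, LNCaP–ENZ168 lay between the VCaP libraries for 29 of the 44 genes. It was the highest of the 3 for 11, among them RFC1, RPA1, RRM1 and GINS2. Their ratios over VCaP parental were 0.46, 0.58, 0.27 and 0.42, beside the 0.57 of all genes. CDT1 and GINS4, under the expression minimum, were at 1.69 and 1.05. Whether LNCaP–ENZ168 stays the highest with other scaling was not tested. In summed CPM, nucleotide supply came closest to the parental level, with 416 CPM against 451 CPM and a log2 ratio of -0.12 (-0.18 to -0.05). Relative to all genes its median was -0.83, level with -0.84 for fork factors and -0.87 for the clamp and loader. CDC45, at -2.24 (-2.67 to -2.00), RFC3, at -1.92 (-2.21 to -1.72), and POLA2, at -1.86 (-2.35 to -1.59), were the furthest below the parental level.

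**Figure D3:**
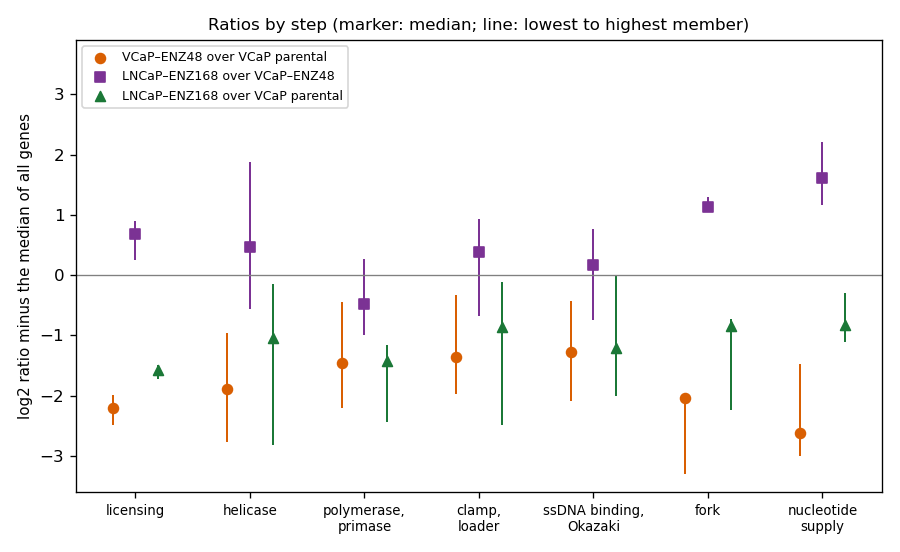
Log2 ratio of CPM + 1 minus the median of all genes for the 7 steps in 3 pairs of libraries, with the median of the expressed genes of a step as a marker and the lowest to highest gene as a line. In VCaP–ENZ48 over VCaP parental every step lies below 0, from -2.62 for nucleotide supply to -1.27 for single-strand binding and Okazaki maturation, and in LNCaP–ENZ168 over VCaP–ENZ48 the steps run from -0.47 for polymerase and primase to 1.61 for nucleotide supply.

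The make-up of the 44 genes' UMIs differed with these ratios. Nucleotide supply took 17.7% of them in LNCaP–ENZ168, 12.8% in VCaP parental and 8.02% in VCaP–ENZ48. Polymerase and primase genes took 13.5%, 17.5% and 28.3%. Most of the latter was POLD2, which differed least between the VCaP libraries among the expressed genes of its step. Fork factors took 4.94%, 5.62% and 2.65%, and the clamp and loader stayed between 21.7% and 24.0%.

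Single cells were compared at equal depth, each thinned to 2000 UMIs, which left out 1 cell of LNCaP–ENZ168, none of VCaP parental and 30 of VCaP–ENZ48. The 44 genes together gave a mean of 4.43 UMIs per cell in LNCaP–ENZ168, 7.14 in VCaP parental and 2.07 in VCaP–ENZ48, with medians of 3, 5 and 2. At least 5 UMIs were found in 30.0% of cells (exact Clopper-Pearson 95% interval 27.1 to 33.0%), 58.3% (55.1 to 61.4%) and 7.96% (6.29 to 9.91%), while 0 UMIs were found in 5.62%, 3.01% and 19.2%. At least 3 UMIs were found in 56.3%, 78.7% and 29.1%. The cells of VCaP–ENZ48 with many UMIs were few, and its whole distribution lay lower. Without thinning, the means were 15.7, 69.0 and 17.7 UMIs and the shares with at least 5 UMIs were 81.4%, 99.8% and 75.7%, at the different depths given above. No cell type in these libraries is known to lack the genes, so the share that RNA free in the droplets would give was not measured.

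The 44 genes' UMIs were spread unevenly over cells. The top 10% of thinned cells held 38.1% of them in LNCaP–ENZ168, 26.4% in VCaP parental and 33.0% in VCaP–ENZ48, and unthinned the shares were 45.6%, 28.6% and 46.1%. VCaP parental had the lowest share both ways, while the order of the other libraries changed with thinning. It also had the highest mean both ways, and counting alone gives a lower share at a higher mean. These shares therefore do not compare evenness among cells. The highest thinned cell had 36, 31 and 17 UMIs, and the highest unthinned cell 187, 514 and 809 UMIs. PCNA was found in 24.0%, 43.9% and 12.8% of thinned cells, against 52.1%, 86.7% and 47.6% unthinned. RRM2 was found in 5.73%, 11.9% and 0.654% of thinned cells, which is 6 cells in VCaP–ENZ48, against 13.8%, 53.0% and 4.96% unthinned. POLD2 was found in 34.0%, 51.7% and 35.2% of thinned cells, against 66.1%, 98.7% and 80.6% unthinned.

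**Figure D4:**
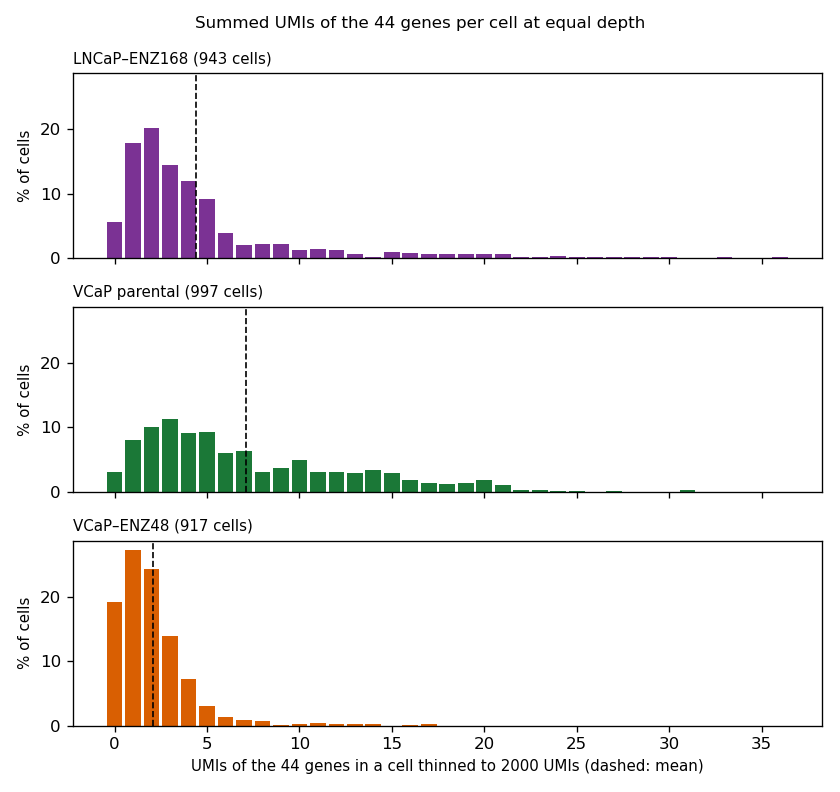
Percent of cells by the number of UMIs of the 44 genes in a cell thinned to 2000 UMIs, in 943 cells of LNCaP–ENZ168, 997 of VCaP parental and 917 of VCaP–ENZ48, with the mean as a dashed line. VCaP parental is broad around a mean of 7.14, LNCaP–ENZ168 has most cells under its mean of 4.43 and a long tail to 36, and VCaP–ENZ48 has a mean of 2.07 and no cell above 17.

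Replication genes are known to be higher in cycling cells, so cells were divided by a list of 22 mitotic genes that shares no gene with the 44, among them MKI67, TOP2A and CDK1. Mitotic-list-positive cells, with at least 2 UMIs of the list after thinning, made up 28.4% of cells (95% interval 25.6 to 31.4%) in LNCaP–ENZ168, 64.4% (61.3 to 67.4%) in VCaP parental and 10.4% (8.46 to 12.5%) in VCaP–ENZ48. The class is a range of a count and not a cell type, and 323, 262 and 238 cells lay at the threshold or 1 UMI below it. With a threshold of 1 UMI the shares were 54.1%, 82.7% and 31.7%, and with 4 UMIs 17.3%, 49.3% and 3.60%, in the same order of libraries. Unthinned, its median cell had 5258.5, 17983.5 and 8375 UMIs against 5409, 17085 and 12314.5 UMIs in the other cells, and only 95 cells of VCaP–ENZ48 were in it.

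The 44 genes summed to more in positive than in other cells in each library. The levels were 4639 and 1405 CPM in LNCaP–ENZ168, 4137 and 2373 CPM in VCaP parental, and 2848 and 1019 CPM in VCaP–ENZ48, which are log2 ratios of 1.72 (1.68 to 1.77), 0.80 (0.78 to 0.83) and 1.48 (1.43 to 1.54). RRM2 stood furthest apart in LNCaP–ENZ168, at 153 CPM in positive and 6.25 CPM in other cells, a log2 ratio of 4.41. In VCaP parental it was at 98.5 and 20.7 CPM and in VCaP–ENZ48 at 56.9 and 3.67 CPM. RPA1 differed little in any library, at 103 and 80.8 CPM, 61.7 and 51.6 CPM, and 56.9 and 39.5 CPM. MCM6 was the only one of the 36 genes that was not higher in the positive cells of VCaP parental. It was at 84.5 and 86.7 CPM, a log2 ratio of -0.04 (-0.18 to 0.11). The intervals of POLD2, at 0.04 (-0.03 to 0.11), and MCM5, at 0.10 (-0.19 to 0.41), included 0 there as well.

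VCaP–ENZ48 over VCaP parental was lower in both classes, and less so in the positive cells. The classes were not matched for the mitotic list itself, which summed to 7540 CPM in VCaP parental and 4065 CPM in VCaP–ENZ48 in positive cells and to 486 and 145 CPM in other cells, and its part in the ratios was not tested. The summed log2 ratio of the 44 genes was -0.54 (-0.59 to -0.49) in positive and -1.22 (-1.25 to -1.19) in other cells, against -1.59 over all cells. The value in positive cells moved with the settings, from -1.02 with a threshold of 1 UMI to -0.28 with 4 UMIs and -0.21 without barcodes ending in N, while that in other cells stayed between -1.38 and -1.03, and the other cells had the lower value in each setting tried. Leaving out barcodes ending in N dropped 86% of barcodes in VCaP parental and 86.9% in VCaP–ENZ48. In VCaP–ENZ48 the cells that remained had a median of 21506 UMIs, against 10604 in those ending in N. In positive cells 33 of the 36 genes were below 0, with a median of -0.51, and MCM2, MCM5 and RPA2 were at 0.02, 0.33 and 0.04 with intervals that included 0. In other cells all 36 were below 0, with a median of -1.53. The medians of all genes were -0.05 and -0.07. With the shares of UMIs that the classes had in VCaP parental, the summed level of VCaP–ENZ48 was 2214 CPM, a log2 ratio of -0.67. That of LNCaP–ENZ168 was 3517 CPM, beside the parental 3525 CPM, but the classes differed in opposite directions. LNCaP–ENZ168 stood at 4639 against 4137 CPM in positive cells and at 1405 against 2373 CPM in other cells. Levels at these shares were worked out only in CPM and at the threshold of 2 UMIs. In CPM over all cells the median of all genes was 0.57 in LNCaP–ENZ168 over VCaP parental. TMM scaling lowers levels in LNCaP–ENZ168 (factor 1.37) and raises them in VCaP parental (factor 0.773). The near-equal levels and the opposite directions are therefore given for CPM only.

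The size of the difference varied among genes in the positive cells, and for 12 of the 36 the interval included 0. CLSPN was at 116 CPM in the positive cells of VCaP parental and 31.4 CPM in those of VCaP–ENZ48, a ratio of -1.86 (-2.40 to -1.42), the lowest of the class. TYMS was at 110 and 43.3 CPM, a ratio of -1.33 (-1.78 to -0.94), and GMNN at 224 and 109 CPM, a ratio of -1.04 (-1.31 to -0.79). TK1 was at 210 and 183 CPM, a ratio of -0.20 (-0.41 to -0.0040), where its ratio over all cells was -2.37. In the other cells TK1 was at 72.5 and 16.8 CPM, a ratio of -2.04 (-2.34 to -1.88), and MCM10 at 35.6 and 4.05 CPM, a ratio of -2.86 (-3.59 to -2.70). CLSPN was the lowest there too, at -3.06 (-3.61 to -2.90). RRM2 was at -0.78 (-1.17 to -0.44) in the positive cells. TYMS, RRM2 and TK1, all more than 5-fold lower over all cells, thus had different ratios within this class, although the intervals of TYMS and RRM2 overlapped. These ratios rest on 51, 67 and 215 UMIs in the 95 positive cells of VCaP–ENZ48. Deep cells weigh more in such sums, which the intervals do not cover.

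**Figure D5:**
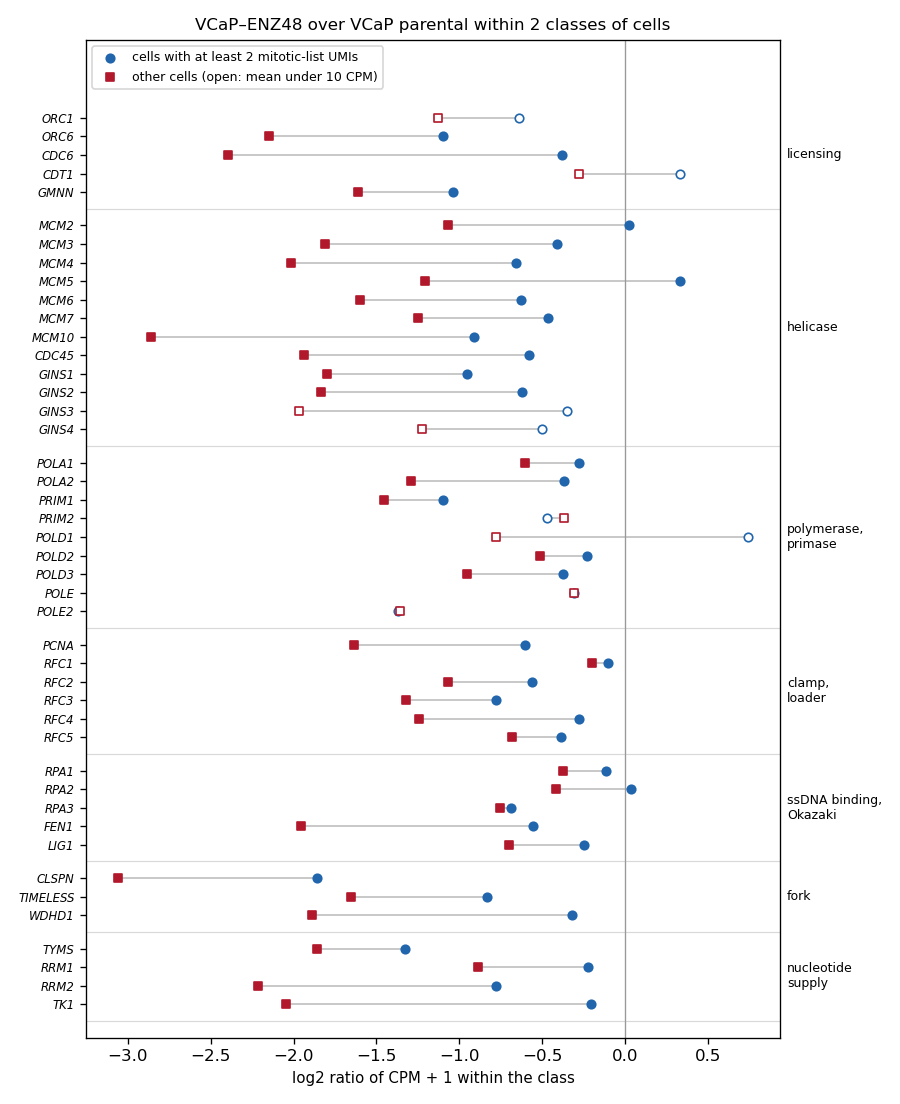
Log2 ratio of CPM + 1, VCaP–ENZ48 over VCaP parental, for each gene within cells with at least 2 mitotic-list UMIs (blue circles) and within the other cells (red squares), joined by a line, with open markers for genes under a mean of 10 CPM in the pair. The circles of the 36 expressed genes lie to the right of the squares, between -1.86 for CLSPN and 0.33 for MCM5.

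Other genes of the pathway, listed apart from the 44, were also lower in VCaP–ENZ48, by less. Of 26 other origin and fork genes 17 reached the minimum, with a median of -0.94. At least 2-fold lower were 6, where 6.77% of all genes were, and at least 2-fold higher were 2, where 8.19% were. DNA2, a nuclease and helicase, was at -2.34 (-3.15 to -2.22) and DBF4, which activates the kinase that fires origins, at -1.89 (-2.13 to -1.75). The higher genes were POLD4, the small subunit of polymerase delta, which went from 9.22 CPM in VCaP parental to 37.9 CPM in VCaP–ENZ48, a ratio of 1.93 (1.79 to 2.29), and TIPIN, the partner of TIMELESS, from 33.5 to 79.9 CPM, a ratio of 1.23 (1.12 to 1.40). TIMELESS and TIPIN, which form 1 complex, thus lay on opposite sides of 0, as did POLD4 and the other subunits of polymerase delta.

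Chromatin assembly and the rest of nucleotide synthesis stood between the 44 genes and the genes at large. Of 12 genes of replication-coupled chromatin assembly 11 reached the minimum, with a median of -1.01. At least 2-fold lower were 7, where 6.77% of all genes were. HELLS, a chromatin remodeller, was at -2.27, ASF1B, a histone chaperone, at -2.21, SLBP, which binds histone mRNA, at -0.72 and RBBP4 at -0.13. Of 23 other genes of nucleotide synthesis 21 reached the minimum, with a median of -0.46, and 6 were at least 2-fold lower, against the same 6.77%. DTYMK, which phosphorylates the product of TYMS, was at -1.81 and DUT, which makes its substrate, at -1.59. IMPDH2, of guanine nucleotide synthesis, was at 0.26. NME2 was at 0.89 and its near-identical neighbour NME1 at -0.90, and both are uncertain because reads could be split between them. In LNCaP–ENZ168 over VCaP–ENZ48 the medians of the 3 lists were 0.44, 1.11 and 0.70, in the order given, beside 0.65 for all genes. The mitotic list itself had a median of -3.40 in VCaP–ENZ48 over VCaP parental. All 21 of its genes at the minimum were at least 4-fold lower, where 2.43% of all genes were.

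All 44 genes were found in the Gencode annotation of GRCh38, on 19 chromosomes. Exons of another gene on the same strand overlapped 6 of them, POLA2, PRIM1, POLD1, POLD3, FEN1 and MCM7, and 17 overlapped exons on the other strand, where the sources used here do not say whether counting used strand. For 10 genes the annotation names pseudogenes after them, among them PCNA, RRM2, TYMS, RPA2 and RPA3, and reads shared with these copies could be dropped or misplaced in counting.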

How the data were processed

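Single cells of LNCaP–ENZ168, VCaP parental and VCaP–ENZ48 were profiled by Drop-seq, 1 library each. The authors aligned to GRCh38 using STAR, ran Drop-seq tools and Picard with 1000 cells expected per sample, and deposited unnormalized UMI counts for each gene and barcode. A gene absent from a file was counted as 0. Kept cells had 300 or more genes, 500 or more UMIs and no more than 25% of UMIs from mitochondrial genes, and the 3 libraries held 6313283 to 19515202 UMIs. No doublet caller was run. As an alternative, barcodes deeper than 3 times the median were dropped.

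UMIs were summed over cells, scaled to CPM and compared as log2 ratios of CPM + 1, with exact Poisson, conditional and Clopper-Pearson 95% intervals that cover counting error only. Genes averaging 10 CPM or more over a pair were counted, and a ratio of at least 2-fold is a size, not a test. Medians were taken relative to all such genes. Cells were thinned without replacement to 2000 UMIs, and those with at least 2 UMIs of the mitotic list formed the positive class. For each step, the 2 genes of highest mean CPM and the genes of lowest and highest ratio were given in all libraries, and others were named for comparison after their values were seen. The genes and lists were chosen with earlier results of these data known. Alternatives covered cell filters, barcodes, depth, weighting, scaling, pseudocount, expression minimum, thinning and the positive threshold. The ratio, its interval and the thinning were tested on simulated data, and the other parts were not. Coordinates came from a later Gencode version than the authors used, and promoters from RefSeq. Computations used Python 3.11.15, numpy 2.4.6, pandas 2.3.3, scipy 1.17.1, matplotlib 3.10.9, R 4.3.3 and edgeR 4.0.16 for TMM factors.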

Additional observations from a re-analysis of the deposited data

How the results depend on the processing

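With 1 library per group there is no replicate to leave out, and no difference can be told apart from one between libraries. No paired analysis was possible because the groups are single libraries. Depth limits the 8 genes under the expression minimum and the 95 positive cells of VCaP–ENZ48, and the cause of the shifts below was not tested, save that a higher minimum leaves fewer genes and deeper thinning shows more UMIs. All genes at the minimum stayed lower in VCaP–ENZ48 than in VCaP parental in every setting run. Of values for steps, 184 stayed within the counting interval of the main value, 38 moved beyond it, and 1, polymerase and primase in LNCaP–ENZ168 over VCaP–ENZ48, changed sign, to 0.11 at a minimum of 1 CPM. Of values for single genes 1106 stayed and 302 moved. Below, the VCaP pair is VCaP–ENZ48 over VCaP parental, the drug pair is LNCaP–ENZ168 over VCaP–ENZ48, relative medians are minus the median of all genes, and steps go by their first word. For classes, leaving out barcodes above 3 times the median depth was chosen after seeing the data. With no filter on cells, summed CPM was 2307 in LNCaP–ENZ168. With at most 15% mitochondrial UMIs, summed CPM was 2383 in LNCaP–ENZ168. Without barcodes above 3 times the median depth, summed CPM was 1098 in VCaP–ENZ48, while the log2 of positive over other cells was 1.78 in LNCaP–ENZ168, 0.83 in VCaP parental and 1.42 in VCaP–ENZ48. The log2 of the VCaP pair was -0.67 in positive cells and -1.26 in other cells. Without barcodes ending in N, relative medians of the VCaP pair were -1.73 for helicase, -1.18 for clamp and -2.29 for nucleotide, while relative medians of the drug pair were 0.42 for licensing and 1.11 for nucleotide. Summed CPM was 2228 in LNCaP–ENZ168, 3609 in VCaP parental and 1203 in VCaP–ENZ48, while the percent of cells with at least 3 UMIs was 32.8 in VCaP–ENZ48. The log2 of positive over other cells was 1.64 in LNCaP–ENZ168, 0.87 in VCaP parental and 1.92 in VCaP–ENZ48, while the log2 of the VCaP pair was -0.21 in positive cells and -1.26 in other cells. With only barcodes ending in N, a setting chosen after seeing the data, relative medians of the drug pair were 0.76 for helicase, 1.53 for fork and 2.26 for nucleotide. With only cells of 5000 to 20000 UMIs, relative medians of the VCaP pair were -2.01 for the genes together, -2.83 for licensing, -2.30 for helicase and -2.95 for nucleotide, while relative medians of the drug pair were 1.39 for licensing, 0.83 for helicase and 2.17 for nucleotide. Summed CPM was 2441 in LNCaP–ENZ168, 3423 in VCaP parental and 1034 in VCaP–ENZ48. With cells weighted equally, relative medians of the VCaP pair were -2.01 for the genes together and -2.14 for helicase, while summed CPM was 2243 in LNCaP–ENZ168, 3490.4 in VCaP parental and 1073 in VCaP–ENZ48. With TMM scaling, 10 of 34 genes were 2-fold higher in the drug pair, against 17.3% of all genes. Summed CPM was then 1715 in LNCaP–ENZ168, 4558 in VCaP parental and 1238 in VCaP–ENZ48. With median-of-ratios scaling, 10 of 34 genes were 2-fold higher in the drug pair, against 18.2% of all genes. Summed CPM was then 1769 in LNCaP–ENZ168, 4396 in VCaP parental and 1245 in VCaP–ENZ48. Without mitochondrial and ribosomal protein genes, summed CPM was 2909 in LNCaP–ENZ168, 4837 in VCaP parental and 1762 in VCaP–ENZ48. With 5 CPM added, relative medians of the VCaP pair were -1.56 for the genes together, -1.93 for licensing, -1.56 for helicase, -1.28 for polymerase, -1.11 for single-strand, -1.78 for fork and -2.33 for nucleotide, while relative medians of the drug pair were 0.93 for fork and 1.41 for nucleotide. With a minimum of 1 CPM, relative medians of the VCaP pair were -1.13 for polymerase, while relative medians of the drug pair were 1.05 for licensing, 0.11 for polymerase and 0.55 for clamp. With a minimum of 50 CPM, 13 of 16 genes were 2-fold lower in the VCaP pair, against 8.45% of all genes, while relative medians of the VCaP pair were -1.43 for the genes together, -1.82 for licensing, -1.40 for helicase, -1.15 for polymerase, -0.82 for single-strand, -3.14 for fork and -1.72 for nucleotide. In the drug pair 5 of 11 genes were 2-fold higher, against 30.5% of all genes, while relative medians of the drug pair were 0.35 for licensing, -0.90 for polymerase and 1.38 for nucleotide. With a minimum of 10 CPM in both libraries, also chosen after seeing the data, relative medians of the VCaP pair were -1.43 for the genes together, -1.38 for helicase and -1.87 for nucleotide, while relative medians of the drug pair were 1.38 for nucleotide. With no thinning, the percent of cells with at least 3 UMIs was 93.6 in LNCaP–ENZ168, 100.0 in VCaP parental and 88 in VCaP–ENZ48. With thinning to 1000 UMIs, the percent of cells with at least 3 UMIs was 28.2 in LNCaP–ENZ168, 53 in VCaP parental and 9.5 in VCaP–ENZ48. With thinning to 4000 UMIs, the percent of cells with at least 3 UMIs was 89 in LNCaP–ENZ168, 94.1 in VCaP parental and 68.9 in VCaP–ENZ48, while the percent positive was 42.7 in LNCaP–ENZ168, 78.5 in VCaP parental and 19.1 in VCaP–ENZ48. The log2 of positive over other cells was 1.13 in VCaP parental and 1.57 in VCaP–ENZ48, while the log2 of the VCaP pair was -0.59 in positive cells and -1.03 in other cells. With a second thinning seed, the percent of cells with at least 3 UMIs was 75 in VCaP parental. With a threshold of 1 UMI, the percent positive was 54.1 in LNCaP–ENZ168, 82.7 in VCaP parental and 31.7 in VCaP–ENZ48, while the log2 of positive over other cells was 1.31 in LNCaP–ENZ168 and 1.07 in VCaP–ENZ48. The log2 of the VCaP pair was -1.02 in positive cells and -1.29 in other cells. With a threshold of 4 UMIs, the percent positive was 17.3 in LNCaP–ENZ168, 49.3 in VCaP parental and 3.6 in VCaP–ENZ48, while the log2 of positive over other cells was 1.82 in LNCaP–ENZ168, 0.59 in VCaP parental and 1.69 in VCaP–ENZ48. The log2 of the VCaP pair was -0.28 in positive cells and -1.38 in other cells.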
